A study of Mus musculus with 6 samples.

Results

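The genes of the insulin-like growth factor (IGF) system were examined in the epididymal fat of mice on 2 diets. The 10 members were the ligands Igf1 and Igf2, the receptors Igf1r and Igf2r and the binding proteins Igfbp2 to Igfbp7, found as the rows of the gene count table whose Ensembl identifiers carry these symbols in GENCODE M21 (GRCm38), so that 10 of 54532 genes were described. Of these, 9 passed the filter on low counts and were tested, and Igf2 did not. Epididymal fat, a visceral depot beside the testis, was sequenced whole in 3 libraries from male C57BL/6J mice on a normal diet (ND, 4.5% fat) and 3 from mice on a high-fat diet (HFD, 60% fat). Feeding started in mice 4 weeks old and went on for 16 weeks, to an age of 20 weeks, and neither group received any drug. The study asked whether fat of obese mice holds cells that resemble the adipocytes found next to tumors.

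IGF-I and IGF-II are small secreted proteins related to insulin that promote growth, survival and differentiation through the IGF-I receptor, a tyrosine kinase. Most circulating IGF-I comes from the liver under the control of growth hormone, but adipose tissue also makes it, and IGF-I and insulin both promote the differentiation of preadipocytes. The IGF-II receptor takes up IGF-II for degradation and carries enzymes to the lysosome, and the secreted binding proteins hold the IGFs, lengthen their life and limit or aid their access to the receptor.

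The count totals lay between 16996896 and 18859320 per library, and 3 counts, used as the floor, corresponded to 0.150 to 0.181 CPM (counts scaled to the library's size with edgeR's TMM factor). This limit covers counting error only. The labels do not say whether a library came from 1 mouse or from pooled tissue, so the p-values measure the spread between these samples. The epithelial markers summed to 125 CPM in ND replicate 3 and to 3.97 to 6.08 CPM in the other 5 libraries, and HFD replicates 2 and 3 were the least alike of the same-diet pairs (Pearson's r of log2 CPM across genes 0.953). The markers of adipocytes were present, with a sum of 34927 to 44281 CPM over 10 genes on ND and 12503 to 31982 CPM on HFD. Among these 10, Cfd alone had a mean of 13634 CPM on ND and 1275 CPM on HFD, and it weighs heavily in these sums.

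Sequences are shown for the members whose levels passed the test and for the part of the coding sequence that sets some of the binding proteins apart. The 250 bases before the RefSeq start site of Igf1, Igf2r and Igfbp7 (GRCm38.p6) are printed on the gene's own strand with each GC box, GGGCGG or its complement CCGCCC, in capitals.
Igf1, chr10:87860861-87861110, plus strand: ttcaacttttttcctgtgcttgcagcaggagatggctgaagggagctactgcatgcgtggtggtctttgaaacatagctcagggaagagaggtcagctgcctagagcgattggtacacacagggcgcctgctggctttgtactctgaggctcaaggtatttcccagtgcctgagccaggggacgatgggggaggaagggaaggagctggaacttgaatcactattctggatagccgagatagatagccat
Igf2r, chr17:12769707-12769956, minus strand: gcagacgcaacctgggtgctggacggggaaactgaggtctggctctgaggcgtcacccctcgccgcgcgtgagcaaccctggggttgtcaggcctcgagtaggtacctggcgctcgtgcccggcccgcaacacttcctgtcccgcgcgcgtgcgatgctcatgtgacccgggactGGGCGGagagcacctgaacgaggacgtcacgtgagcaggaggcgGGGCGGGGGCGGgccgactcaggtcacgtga
Igfbp7, chr5:77408046-77408295, minus strand: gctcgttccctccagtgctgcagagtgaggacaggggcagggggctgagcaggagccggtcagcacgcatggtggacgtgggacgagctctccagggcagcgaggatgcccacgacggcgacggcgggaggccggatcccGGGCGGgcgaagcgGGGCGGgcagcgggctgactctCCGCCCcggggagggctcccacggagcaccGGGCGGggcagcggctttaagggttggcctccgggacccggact
The Igf1 window held 5 CpG dinucleotides, 52.8% G and C and no GC box. The Igf2r window held 27 CpG, 69.2% G and C and 3 GC boxes, and the Igfbp7 window held 26 CpG, 74.0% G and C and 4 GC boxes. Over the 32851 RefSeq windows of this length the medians were 6 CpG and 52.4% G and C, and 32.7% held a GC box. All motifs were searched on both strands with overlaps counted. The Igf1 window lies inside the GENCODE gene, which starts further upstream. The letters TTCNNNGAA, the motif of STAT5, the factor through which growth hormone acts on Igf1 in liver, were found in 7.02% of all windows and in no window of the 10 members. TATAAA was found in 12.4% of all windows and among the members in that of Igfbp4 and that of Igfbp6. These matches describe the letters in the windows and are not binding sites.

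Most classical IGF-binding proteins share a cysteine-rich stretch near the start of the protein that reads glycine, cysteine, glycine, cysteine, cysteine, any residue, any residue, cysteine. The codons of this stretch were read from the longest coding sequence of each gene in GENCODE M21, with the cysteine codons in capitals.
Igfbp2, codons 67 to 74: ggcTGCggcTGCTGCtccgtgTGC
Igfbp3, codons 68 to 75: ggcTGCggcTGCTGCctgactTGC
Igfbp4, codons 52 to 59: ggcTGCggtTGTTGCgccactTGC
Igfbp5, codons 51 to 58: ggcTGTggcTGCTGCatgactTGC
The stretch was found once in each of these 4 genes and in neither Igfbp6 nor Igfbp7. Igfbp6 is known for its preference for IGF-II, and Igfbp7 for its low affinity for IGFs. Igfbp7 was the binding protein whose level passed the test, and it lacked the stretch, as did Igfbp6, whose level did not pass.

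At an adjusted p under 0.05, 3 of the 9 tested members differed between the diets by edgeR's quasi-likelihood test, with Igf2r higher on HFD and Igf1 and Igfbp7 lower. Over all 15751 genes tested, 15.9% passed in either direction, 9.85% higher and 6.04% lower. The values of the 2 diets did not overlap for 5 of the 9 members, against 40.9% of all genes. By DESeq2's Wald test 4 members passed, the same 3 and Igfbp2, against 19.1% of all genes. In edgeR's test no member passed when any 1 of the ND replicates or HFD replicate 1 was left out, in fits that called 2.93% to 6.24% of all genes, while 4 members had an unadjusted p under 0.05 in each of these fits. The log2 fold change was negative for 8 of the 9 members with a median of -0.36, where the median of all genes was 0.01 and 49.5% were negative.

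**Figure D1:**
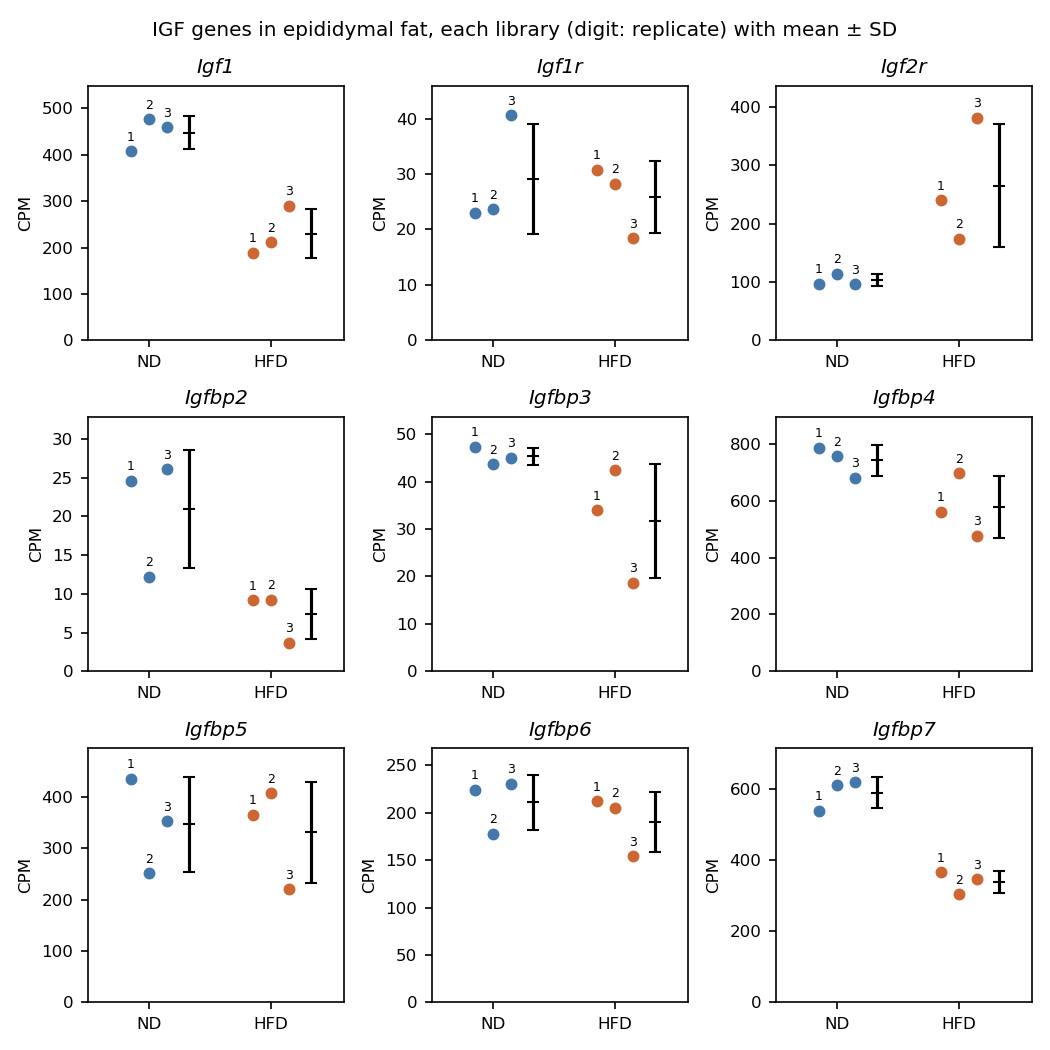
CPM of the 9 tested members in each library of epididymal fat (points, with the replicate number), with mean ± SD of the 3 libraries of each diet, on linear axes from 0. Igf1, Igfbp2, Igfbp3 and Igfbp7 lay lower in every HFD library than in any ND library and Igf2r lay higher, and the other 4 members overlapped.

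Igf1 (ENSMUSG00000020053, chromosome 10 from 87858265 to 87937042, plus strand) encodes the ligand IGF-I. It had 408, 476 and 459 CPM in the ND libraries and 189, 212 and 290 CPM in the HFD libraries. Every HFD library was below every ND library, and HFD replicate 3 was the highest of its diet. Its mean was 448 ± 35.4 CPM on ND against 230 ± 53.1 on HFD (SD, n = 3 each), with a fitted level 1.94-fold lower. On the log2 scale the change was -0.96 with a standard error of 0.20 and a 95% interval of -1.42 to -0.50 (edgeR, adjusted p = 0.0208). Igf1os, an antisense gene at the locus, shares no exon bases with Igf1 and had 8 to 47 counts per library.

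Igf2 (ENSMUSG00000048583, chromosome 7 from 142650766 to 142666816, minus strand), the imprinted gene of the fetal growth factor IGF-II, was at the limit of detection. It had 5, 3 and 5 counts on ND and 3, 9 and 0 counts on HFD, too few at this depth to show a difference. The 0 counts of HFD replicate 3 allow up to 0.173 CPM. The Igf2 exons share 3596 of their 5723 bases with Gm49394, which was listed at 0 counts in every library, so the counts of Igf2 are uncertain. The diets overlapped, and per length the mean of Igf2 on ND was 0.0410 FPKM, against 45.9 FPKM for Igf1.

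Igf1r (ENSMUSG00000005533, chromosome 7 from 67952827 to 68233668, plus strand) encodes the signalling receptor of both ligands. It had 23.1, 23.7 and 40.6 CPM on ND against 30.8, 28.2 and 18.4 on HFD. The diets overlapped, with the highest value in ND replicate 3 and the lowest in HFD replicate 3. The log2 fold change of -0.17 did not pass (95% interval -0.83 to 0.49, adjusted p = 0.701 from edgeR's test), and it was 0.11 without ND replicate 3.

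Igf2r (ENSMUSG00000023830, chromosome 17 from 12682406 to 12769664, minus strand), the gene of the IGF-II and mannose 6-phosphate receptor, was the member that rose. It had 97.1, 114 and 96.6 CPM on ND against 240, 174 and 381 on HFD. All HFD libraries were above all ND libraries, and they differed among themselves up to 2.19-fold, against 1.18-fold on ND. Its mean was 103 ± 10.1 CPM on ND against 265 ± 106 on HFD (SD, n = 3 each), with a fitted level 2.58-fold higher. On the log2 scale the change was 1.37 with a standard error of 0.28 and a 95% interval of 0.71 to 2.03 (edgeR, adjusted p = 0.0220). Without HFD replicate 3, the highest library, the log2 fold change was 0.99 (adjusted p = 0.0101). Airn, the long antisense RNA of this imprinted locus, shares no exon bases with Igf2r and had 85 to 110 counts on ND and 101 to 175 on HFD. Whether the counts kept the strand is not stated.

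Igfbp7 (ENSMUSG00000036256, chromosome 5 from 77349240 to 77408041, minus strand) encodes a secreted protein of vessels and stroma that is related to the IGF-binding proteins. It had 539, 611 and 618 CPM on ND against 365, 304 and 346 on HFD. The diets did not overlap, and the coefficient of variation was 7.44% on ND and 9.33% on HFD. Its mean was 589 ± 43.9 CPM on ND against 338 ± 31.6 on HFD (SD, n = 3 each), with a fitted level 1.74-fold lower. On the log2 scale the change was -0.80 with a standard error of 0.16 and a 95% interval of -1.16 to -0.44 (edgeR, adjusted p = 0.0182). The exons of Polr2b on the other strand share 85 bases with those of Igfbp7.

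Igfbp2 (ENSMUSG00000039323, chromosome 1 from 72824503 to 72852474, plus strand), a binding protein that adipocytes secrete, lay just outside the threshold. It had 24.6, 12.2 and 26.1 CPM on ND against 9.18, 9.27 and 3.69 on HFD. The diets did not overlap, but ND replicate 2 was near the HFD values. The log2 fold change of -1.51 was the largest in size among the 9 tested members and had the widest interval (-2.49 to -0.53), with a standard error of 0.42 (edgeR, adjusted p = 0.0509). With DESeq2 the adjusted p was 0.00302.

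Igfbp3 (ENSMUSG00000020427, chromosome 11 from 7206086 to 7213923, minus strand) encodes the main carrier of IGF-I in blood. It had 47.3, 43.7 and 45.0 CPM on ND against 34.0, 42.3 and 18.7 on HFD. The diets did not overlap, and HFD replicate 2 was just below the lowest ND library. The log2 fold change of -0.52 did not pass (95% interval -1.15 to 0.12, adjusted p = 0.223 from edgeR's test).

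Igfbp4 (ENSMUSG00000017493, chromosome 11 from 99041244 to 99054392, plus strand), whose product inhibits IGF action until the protease PAPP-A cleaves it, had 786, 757 and 680 CPM on ND against 561, 695 and 477 on HFD. The diets overlapped through HFD replicate 2, and the log2 fold change was -0.36 (95% interval -0.81 to 0.09, adjusted p = 0.231 from edgeR's test). Igfbp5 (ENSMUSG00000026185, chromosome 1 from 72857932 to 72874884, minus strand), whose product also binds extracellular matrix, had 436, 251 and 353 CPM on ND against 365, 407 and 221 on HFD. Its diets overlapped widely, and the log2 fold change of -0.07 (95% interval -0.74 to 0.61, adjusted p = 0.892) was 0.13 without ND replicate 1. Igfbp6 (ENSMUSG00000023046, chromosome 15 from 102144362 to 102149511, plus strand) had 224, 178 and 231 CPM on ND against 212, 205 and 154 on HFD, which overlapped, with a log2 fold change of -0.15 (95% interval -0.56 to 0.27, adjusted p = 0.595).

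The binding protein genes lie partly in pairs. Igfbp2 and Igfbp5 face each other on chromosome 1 with 5457 bases and no gene between them, and their log2 fold changes were -1.51 and -0.07. Igfbp3 lies 3539 bases from Igfbp1, a binding protein made mainly by liver, which was at 0 counts in 5 libraries and had 49 counts in ND replicate 3, the library with the high epithelial sum. HFD replicate 3 was the lowest HFD library for 6 of the 9 tested members and the highest for 2, Igf1 and Igf2r.

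**Figure D2:**
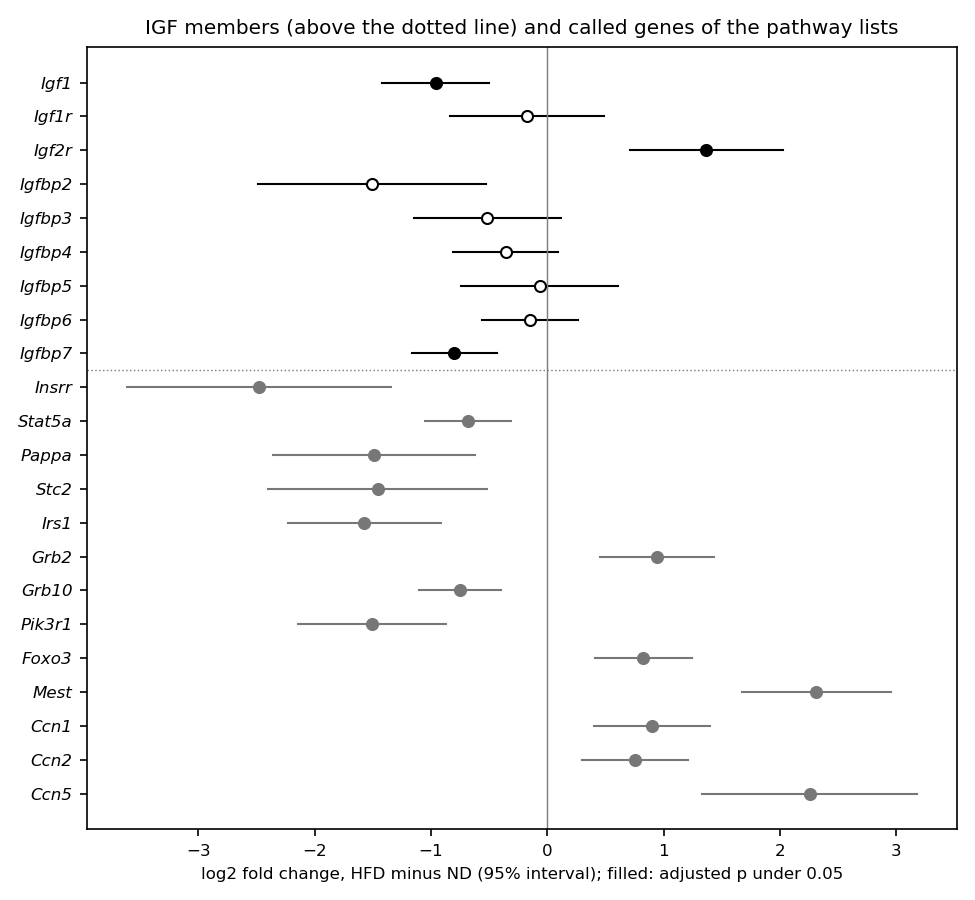
Log2 fold changes (HFD minus ND) with 95% intervals from edgeR for the 9 tested members, above the dotted line, and the 13 genes of the pathway lists that passed, with filled points for an adjusted p under 0.05. Among the members the filled points are Igf1 (-0.96), Igf2r (1.37) and Igfbp7 (-0.80).

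Levels of different genes were compared per length, in FPKM (fragments scaled to exon length and library size). On ND the order by mean FPKM was Igfbp7 (494 ± 34.9), Igfbp6 (192 ± 25.1), Igfbp4 (170 ± 14.0), Igfbp5 (58.5 ± 15.6), Igf1 (45.9 ± 3.58), Igfbp3 (14.7 ± 0.620), Igfbp2 (11.5 ± 4.12), Igf2r (11.2 ± 1.16), Igf1r (1.75 ± 0.583) and Igf2 (0.0410 ± 0.00887; SD, n = 3). The ranges of Igfbp6 and Igfbp4 overlapped, as did those of Igfbp5 and Igf1 and those of Igfbp2 and Igf2r. On HFD, Igf2r (28.6 ± 11.4 FPKM) stood between Igfbp5 (55.4 ± 16.5) and Igf1 (23.3 ± 5.34), with ranges that overlapped both, and the rest of the order was the same. The FPKM values divide by the whole exon length of a gene, 9904 bases for Igf1 and 1209 for Igfbp7, so a gene with long exons that these transcripts do not all use has a low value.

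The FPKM of the 6 binding protein genes summed to 944, 917 and 964 on ND and 700, 683 and 579 on HFD. The diets did not overlap, with means of 941 ± 23.4 and 654 ± 65.4 FPKM (SD, n = 3 each). A two-sided exact permutation test gave p = 0.1, the smallest that 3 libraries against 3 allow. Igfbp7 had the largest fall of the 6 genes, with a mean of 494 FPKM on ND and 281 FPKM on HFD. The means of the other genes were also lower on HFD, but their sum without Igfbp7 was not tested. A fall of the binding proteins as a group is therefore not shown by the sum. The FPKM of Igf1 was 4.45%, 5.35% and 4.83% of the sum of all 6 genes on ND and 2.74%, 3.15% and 5.07% on HFD. HFD replicate 3 was within the ND values, and the log2 ratio of Igf1 to the sum differed by -0.46 (two-sided exact permutation p = 0.3). This difference was -0.73 without HFD replicate 3, -0.28 without HFD replicate 1 and -0.72 with Igfbp7 left out of the sum.

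Igfbp7 took 48.1%, 56.2% and 53.3% of the summed binding protein FPKM on ND and 43.4%, 37.0% and 49.6% on HFD, a difference of -9.23 percentage points between overlapping diets (two-sided exact permutation p = 0.2) that was -6.05 points without HFD replicate 2. Igfbp6 took 21.8%, 17.8% and 21.6% on ND and 27.4%, 27.1% and 24.0% on HFD, 5.79 points more and without overlap (p = 0.1, the smallest possible in this exact test). With Igfbp7 left out of the sum, the share of Igfbp6 differed by 3.41 points (exact permutation p = 0.2). The level of Igfbp6 itself did not pass. The shares of Igfbp5, Igfbp4, Igfbp2 and Igfbp3 overlapped and differed by 2.15, 1.93, -0.62 and -0.03 points (exact permutation p = 0.2, 0.6, 0.2 and 0.9). Without HFD replicate 2 they differed by 1.34, 0.36, -0.69 and -0.26 points, and with Igfbp7 left out of the sum by 1.68, -2.95, -1.50 and -0.64 points. The share of Igfbp5 also moved to 1.38 points without ND replicate 2, that of Igfbp4 to 0.89 points without ND replicate 3, and that of Igfbp3 to -0.06 points without ND replicate 3, 0.00355 without ND replicate 1 and 0.21 without HFD replicate 3. The 6 shares, the ratio and the sum are 8 comparisons, and the lowest Benjamini-Hochberg adjusted value of these exact tests was 0.32.

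**Figure D3:**
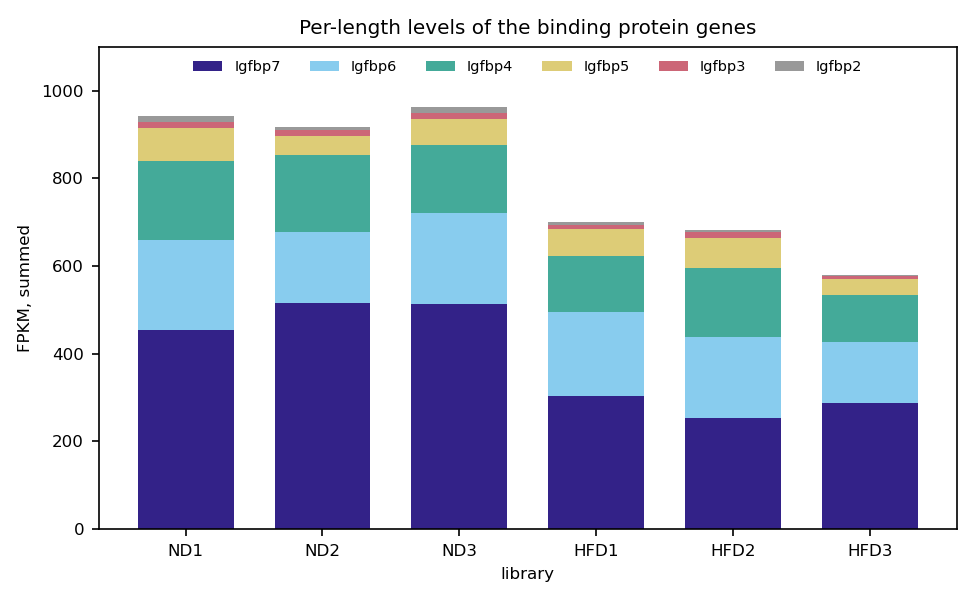
FPKM of the 6 binding protein genes stacked for each of the 6 libraries on a linear axis from 0, so that the height of a bar is their sum. The bars reach 917 to 964 FPKM on ND and 579 to 700 FPKM on HFD, and Igfbp7, at the base, is the tallest segment in each.

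The other genes of the pathway were taken from 7 written lists with 52 genes, of which 47 were tested, 6 were higher and 7 were lower on HFD by edgeR's test. Over all genes tested, 9.85% were higher and 6.04% were lower, and the counts of each list and of the markers below stand beside the same shares. The median log2 fold change over the 47 was -0.16. With 1 library left out, 4, 2 and 5 of the 47 passed without ND replicates 1, 2 and 3, and 1, 17 and 13 without HFD replicates 1, 2 and 3. The calls over all genes moved as well, to 3.04%, 3.63% and 6.24% without the ND replicates and 2.93%, 24.2% and 12.9% without the HFD replicates. By DESeq2's Wald test 19 of 49 pathway genes passed, 8 higher and 11 lower, against 19.1% of all genes. Ghr, Insr, H19 and Igf2bp2, described below, were among these 19. In the growth hormone axis, through which the hormone drives Igf1, all 6 log2 fold changes were negative with a median of -0.58, and 1 gene passed by edgeR's test. They ranged from -2.25 to -0.11. The smallest were those of Stat5b (-0.11) and Jak2 (-0.14), which did not pass (edgeR, adjusted p = 0.543 and 0.374). A link of this axis to the level of Igf1 was not tested. Stat5a, a transcription factor of this axis, had 73.7, 77.4 and 60.9 CPM on ND against 43.2, 51.9 and 37.4 on HFD (log2 fold change -0.68, adjusted p = 0.0301). It passed in 3 of 6 edgeR fits with 1 library left out. Ghr, the growth hormone receptor, picked after its values were seen, had 1810, 1964 and 1521 CPM on ND against 963, 1304 and 581 on HFD, without overlap. Ghr did not pass by edgeR's test (log2 fold change -0.90, adjusted p = 0.0884) but passed by DESeq2's.

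Of the 8 genes for proteases of the binding proteins and their inhibitors, 2 were lower and none was higher. Pappa, the gene of PAPP-A, had 3.24, 2.96 and 1.75 CPM on ND against 1.09, 0.96 and 0.75 on HFD (log2 fold change -1.49, adjusted p = 0.0364). Stc2, whose product stanniocalcin-2 inhibits PAPP-A, had 68.5, 43.2 and 61.0 CPM on ND against 22.6, 30.8 and 9.45 on HFD (log2 fold change -1.46, adjusted p = 0.0495). Pappa passed in 1 of 6 edgeR fits with 1 library left out (without ND replicate 3) and had an adjusted p of 0.0634 with no filter and 0.0588 with the replicate block. Stc2 passed in 2 of these 6 fits (without HFD replicate 2 or 3) and had an adjusted p of 0.164 with no filter, 0.0783 with the block and 0.0541 with library size only. The gene of the substrate, Igfbp4, did not pass.

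Downstream of the receptor, 2 of 16 genes were higher and 3 were lower, with a median log2 fold change of -0.11. Irs1, the docking protein of the insulin and IGF-I receptors, had 31.9, 32.1 and 38.0 CPM on ND against 10.2, 16.6 and 7.55 on HFD (log2 fold change -1.57, adjusted p = 0.0144). Pik3r1, a regulatory subunit of PI3-kinase, had 360, 432 and 623 CPM on ND against 159, 211 and 127 on HFD (-1.51, adjusted p = 0.0152). Grb10, an adaptor that inhibits both receptors, fell by 0.75 on the log2 scale (adjusted p = 0.0196), while Grb2, an adaptor of the Ras pathway, and Foxo3, a transcription factor that AKT holds out of the nucleus, rose by 0.94 and 0.83 (adjusted p = 0.0261 and 0.0248). With the replicate block the adjusted p of Grb2 was 0.0667. Of the 6 edgeR fits with 1 library left out, Irs1, Grb10 and Grb2 each passed in 2, Foxo3 in 3 and Pik3r1 in 4. Irs2, Akt1, Akt2 and Foxo1 were among the 11 genes of this list that did not pass.

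Of the other receptors and carriers, 1 of 3 tested genes passed. Insrr, an orphan receptor of the insulin receptor family, was low on both diets and near the floor on HFD, at 0.864, 0.986 and 1.75 CPM on ND against 0.273, 0.181 and 0.173 on HFD (log2 fold change -2.48, adjusted p = 0.0185, or 0.0503 with the replicate block). Insrr passed in 2 of 6 edgeR fits with 1 library left out. Insr, the insulin receptor, picked after its values were seen, had 155, 175 and 155 CPM on ND against 114, 126 and 78.3 on HFD, without overlap. Insr did not pass by edgeR's test (log2 fold change -0.61, adjusted p = 0.0671) but passed by DESeq2's.

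Among 6 imprinted growth genes 1 passed. Mest, an imprinted gene known to rise in expanding fat, had 56.2, 96.0 and 84.9 CPM on ND against 435, 459 and 285 on HFD, a 4.97-fold higher level (log2 fold change 2.31, adjusted p = 0.00631). It also passed with each library left out in turn. H19, the noncoding neighbour of Igf2, picked after its values were seen, had a log2 fold change of -1.95. It did not pass by edgeR's test (adjusted p = 0.0798) but passed by DESeq2's. Of the Igf2 mRNA-binding proteins, only Igf2bp2 was tested, with 16.8, 14.1 and 17.0 CPM on ND against 39.4, 19.6 and 89.3 on HFD. It did not pass by edgeR's test (log2 fold change 1.63, adjusted p = 0.0646) but passed by DESeq2's.

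The secreted proteins that share the IGF-binding domain with the binding proteins had 3 of 7 tested genes higher, none lower and a median log2 fold change of 0.60. Ccn5 had 18.5, 5.86 and 8.45 CPM on ND against 54.4, 57.2 and 45.0 on HFD, a 4.77-fold higher level (log2 fold change 2.25, adjusted p = 0.0139). Ccn1 and Ccn2, matricellular proteins of the same family, rose by 0.90 and 0.76 on the log2 scale (adjusted p = 0.0314 and 0.0406). The call of Ccn2 ended with library size only (0.0537), with the replicate block (0.0531) and with limma on FPKM (0.0540 and 0.0535 with pseudocounts of 1 and 0.1), and it passed in 1 of 6 edgeR fits with 1 library left out (without HFD replicate 2). Ccn1 passed in 2 of these 6 fits (without HFD replicate 2 or 3) and Ccn5 in 4.

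The genes most like the called members over the 6 libraries were found by the root mean square difference of log2 CPM after centring each gene on its mean. Igf1 was nearest to Ednra (0.0664), Dhrs11 (0.144) and Fads1 (0.145). Igf2r was nearest to Mgat5 (0.0442), Rasal3 (0.0458) and Il10rb (0.0605), and Igfbp7 to Polr2i (0.0922), Tmco6 (0.0923) and Zbtb26 (0.0946). These differences describe 6 libraries and carry no test.

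Markers of the cell types in fat moved between the same libraries. Of 10 macrophage markers 8 were higher and none lower, with sums of 1871 to 1980 CPM on ND and 4028 to 8734 CPM on HFD, and all 6 markers of lipid-associated macrophages were higher, with sums of 53.1 to 80.3 CPM on ND and 1474 to 6273 CPM on HFD. Both the macrophage sum and Igf2r were highest in HFD replicate 3 and lowest, among the HFD libraries, in replicate 2. The progenitor and fibroblast sum had the same order on HFD (4825, 4139 and 7286 CPM in replicates 1, 2 and 3). Of 10 adipocyte markers 2 were lower, Cfd and Adrb3, and HFD replicate 3 had the lowest sum and the highest Igf1 of its diet.

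Of 10 endothelial markers none passed (sums of 1544 to 1861 CPM on ND and 875 to 1744 CPM on HFD) and of 10 mural markers 1 was lower, Rgs5 (1377 to 1616 CPM and 708 to 1269 CPM). The log2 fold change was negative for all 10 endothelial markers (median -0.29) and for 9 of the 10 mural markers (median -0.44). It was negative for 3 of the 10 progenitor and fibroblast markers (median 0.04), where 49.5% of all genes were negative. The 10 markers of progenitors and fibroblasts included none that passed, with 5466 to 6401 CPM on ND and 4139 to 7286 CPM on HFD. No mesothelial (8), lymphocyte (8) or tested epithelial (2) marker passed, and no list had a marker at 0 in every library. The part of these markers in the results for Igf1, Igf2r and Igfbp7 was not tested, and in whole tissue fewer cells of a type and less RNA per cell cannot be told apart.

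**Figure D4:**
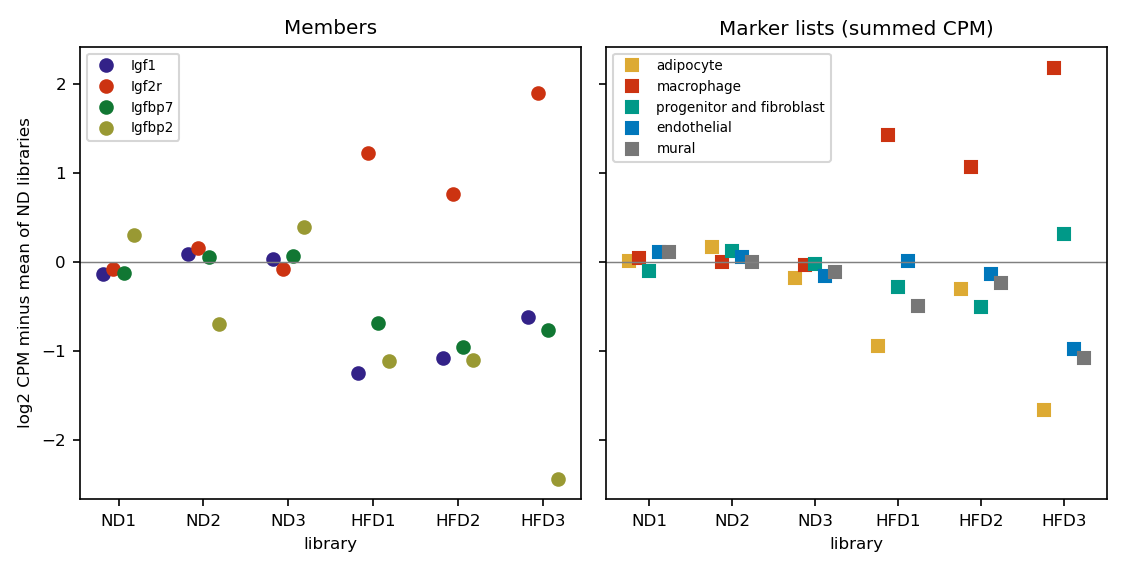
Log2 CPM in each library minus the mean of the 3 ND libraries, for 4 members on the left and for the summed markers of 5 cell types on the right. Igf2r, the macrophage sum and the progenitor and fibroblast sum are highest in HFD replicate 3 (381, 8734 and 7286 CPM). The adipocyte, endothelial and mural sums are lowest there (12503, 875 and 708 CPM), and Cfd weighs heavily in the adipocyte sum.

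The 3 called members kept their direction in each of the 6 fits with 1 library left out and passed in 2 of them, without HFD replicate 2 and without HFD replicate 3. Without ND replicate 3, the library with epithelial counts, the adjusted p was 0.0562 for Igf1, 0.0730 for Igf2r and 0.0556 for Igfbp7, with log2 fold changes of -0.98, 1.29 and -0.80. Their adjusted p was highest without HFD replicate 1 for Igf1 (0.0851) and Igfbp7 (0.0690) and without ND replicate 1 for Igf2r (0.0889). In the 11 fits that kept all libraries and changed the tool, scaling, filter, unit or replicate block, each of the 3 passed in 10 and missed the threshold in limma on log2(FPKM + 1) with no filter.

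**Figure D5:**
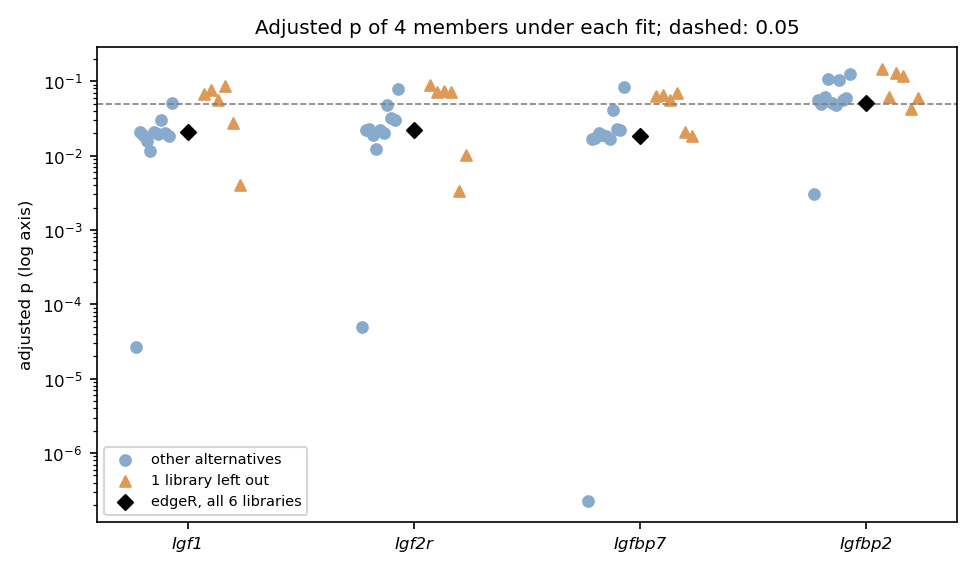
Adjusted p on a log axis for Igf1, Igf2r, Igfbp7 and Igfbp2 from edgeR with all 6 libraries (diamonds), with 1 library left out (triangles) and under other alternatives (circles), with 0.05 dashed. The diamonds of Igf1 (0.0208), Igf2r (0.0220) and Igfbp7 (0.0182) are below the line and that of Igfbp2 (0.0509) is just above it, and 4 of 6 triangles of each of the first 3 are above it.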

How the data were processed

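Gene expression was measured by RNA-Seq in 6 libraries of epididymal fat (3 ND, 3 HFD), made with the NEBNext Ultra RNA kit. Diet and replicate number come from the sample titles. According to the paper's methods, the authors mapped reads to GRCm38 with TopHat and Cufflinks, whereas the submitters' processing notes list CASAVA 1.8, fastp, HISAT2 2.0.5, featureCounts 1.5.0-p3 and DESeq2 1.20.0 and name human builds. The identifiers are mouse Ensembl genes. The authors deposited raw counts per gene, without normalization, and FPKM values, which use the exon length of the M21 annotation for all 10 members.

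Counts were scaled to CPM with TMM factors. The diets were compared in edgeR 4.0.16 (R 4.3.3) with the quasi-likelihood F-test and robust=TRUE after filterByExpr, with diet as the only factor and Benjamini-Hochberg adjustment over 15751 genes, and called means an adjusted p under 0.05. Adjusted p-values in the text without another tool are from this test. Ratios and shares of FPKM were compared by two-sided exact permutation tests (scipy 1.17.1). Alternatives included leaving out each library, other scalings and filters, robust=FALSE, DESeq2 1.42.0, limma 3.58.1 with voom or on log2(FPKM + 1) and log2(FPKM + 0.1), a fold change threshold of 1 on the log2 scale, and a replicate block. The fits with edgeR (with and without the replicate block), DESeq2, limma-voom and limma on log2(FPKM + 1) were tested on simulated counts. The ratios, shares, marker sums and sequence searches were not part of that test.

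All 10 members are named, with the pathway genes that passed (Igf2bp2 where a list had none), the 3 protein-coding genes nearest in profile to each called member (average log2 CPM above 3), and genes whose exons overlap a member or that are its nearest family member. Some pathway genes that did not pass by edgeR's test are named outside this rule. These are Ghr, Insr and H19, picked after their values were seen, and Irs2, Akt1, Akt2 and Foxo1. Stat5b and Jak2 are also named, for the smallest changes in the growth hormone list. Ccn3 is named for its call with the replicate block. The members and lists were chosen with earlier results of these data known. Same-numbered libraries come from different mice.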

Additional observations from a re-analysis of the deposited data

How the results depend on the processing

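Leaving out 1 library gave 0 to 4 called members (3 with all), 1 to 17 pathway genes (13 with all) and 7 to 23 markers (17 with all), where the calls over all genes went from 474 to 3940. Such fits have fewer samples. The log2 fold change of Igf1r was -0.35 to 0.11 in these fits, above 0 without ND replicate 3 (0.11) and without HFD replicate 3 (0.0062), and that of Igfbp5 was -0.25 to 0.14, above 0 without ND replicate 1 (0.13) and HFD replicate 3 (0.14). The share of Igfbp3 differed by -0.263 to 0.215 points, reversed without ND replicate 1 (0.00355) and HFD replicate 3 (0.215), and that of Igfbp4 by -2.95 points with Igfbp7 out of the sum, which gave -0.643 points for Igfbp3. With limma on log2(FPKM + 1) and no filter, 0 members, 2 pathway genes and 9 markers passed (adjusted p = 0.0502 for Igf1, 0.0789 for Igf2r and 0.0844 for Igfbp7), and 649 of all genes. With a log2 fold change of at least 1 as well, 1 member of 9 (Igf2r) and 7 of 47 pathway genes passed, against 10.1% of all genes. The causes were not tested. Igfbp2 passed with DESeq2, with DESeq2's size factors in edgeR, with robust=FALSE and without HFD replicate 2.

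Replicate numbers did not pair the libraries (correlations of deviations -0.086, -0.056 and -0.0053). With the replicate block 1886 genes were called, among them 3 members and 9 pathway genes (Ccn2, Grb2, Insrr, Pappa and Stc2 no longer passed and Ccn3 did), and the adjusted p was 0.0299 for Igf1, 0.0485 for Igf2r and 0.0414 for Igfbp7.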
